A study of Mus musculus with 9 samples.

Results

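The cytosolic ribosomal proteins are the protein part of the ribosome that translates nuclear messages, and 76 genes of the table carry a symbol of this family: 46 of the large subunit (Rpl and Rplp) and 30 of the small subunit (Rps, with Rpsa), out of 17132 genes. They were picked by a symbol pattern, and all 76 passed the filter on low counts that left 12828 genes for testing. Rps3a1, Fau and Rack1, among others, also code for proteins of this ribosome but lie outside the pattern, and they are given apart. The RNA came from pancreas of C57BL/6 mice, 3 mice per group, taken 24 h after the first injection. Model mice were injected 7 times, hourly and into the peritoneum, with caerulein at a dose the design text gives as 50 mg/kg, with LPS (bacterial lipopolysaccharide) joined to the last injection, and then had saline by way of treatment. Caerulein mimics cholecystokinin and acts on acinar cells. QYD mice had the same injections and were given Qingyi Decoction, a multi-herb formula, at 0 and 8 h. Their sample names write QYD where the treatment label writes QTD. Control mice had saline for the injections and for the treatment. All 3 groups were wild type, and age was not given in the sources used here.

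Ribosomal proteins are made in near equal numbers, since each ribosome takes 1 copy of nearly every one, and their genes are known for moving together. Their messages begin with a cytosine followed by a run of pyrimidines, the terminal oligopyrimidine (TOP) start, through which the growth kinase mTOR and the RNA-binding protein Larp1 control how much of each message is translated and stored. The acinar cell of the pancreas is among the most active protein makers of the body, and most of its messages code for digestive enzymes.

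The TOP start is the sequence feature by which this family is known, and it is shown for members whose values are given below. Of the 76 members, 56 matched an entry in the RefSeq promoter table (build GRCm38.p6). In 20 of those 56 (35.7%) a C within 2 bases of the annotated start was followed by at least 4 further C or T, which was also so in 11.7% of the 13386 other genes of the table with an entry. With at least 7 further C or T the shares were 28.6% of members and 3.29% of other genes, and with the C exactly at the annotated start they were 23.2% and 2.82%. Each window below runs from 10 bases before the annotated start to 20 bases after that point, 5′ to 3′ on the strand of the gene, and capitals mark the run.
Rps18, chr17:33955646-33955675, minus strand: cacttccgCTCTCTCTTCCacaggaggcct
Rps21, chr2:180257369-180257398, plus strand: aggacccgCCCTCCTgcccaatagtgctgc
Rps15a, chr7:118116128-118116157, minus strand: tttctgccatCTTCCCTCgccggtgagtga
Rps27, chr3:90213629-90213658, minus strand: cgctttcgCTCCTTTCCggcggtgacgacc
Rplp2, chr7:141447641-141447670, plus strand: cagcgtcttCCTTTCgccgccggacgccgc
Rps6, chr4:86857348-86857377, minus strand: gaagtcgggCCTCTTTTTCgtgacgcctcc
Rps25 and Rpl9, described at length below, showed no such run at the annotated start.
Rps25, chr9:44407704-44407733, plus strand: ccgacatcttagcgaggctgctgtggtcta
Rpl9, chr5:65391412-65391441, minus strand: gggccctgacggattacaagaacgtgatga
The annotated start need not be the start used in pancreas, so a window without a run says only that these letters are not there. TATAAA on the sense strand lay within 250 bases before the start in 1.79% of members and in 6.35% of other genes.

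The family took a larger share of all counts after injury and a smaller share of the counts left once digestive enzymes were set aside. Members held 3.29%, 3.44% and 2.90% of all estimated counts in Model mice 56, 57 and 59, against 1.48%, 1.45% and 1.47% in Control mice 43, 44 and 45. In QYD mice 65, 66 and 68 the share was 3.18%, 3.25% and 3.41%, so every injured library lay above every Control library. The 35 digestive enzyme genes found in the table, of 38 listed, took 46.1% to 52.1% of counts in Model, 46% to 53.7% in QYD and 83.6% to 84.9% in Control. Without those genes, members held 6.27%, 6.38% and 6.05% of the remaining counts in Model mice, against 9.77%, 9.29% and 8.94% in Control mice. The same share was 5.89%, 6.62% and 7.37% in QYD mice, again with no overlap with Control, but in the other direction. No test was run on these shares. As a share of TPM, which divides each count by transcript length first, members held 6.03% ± 0.61 in Model, 6.05% ± 0.10 in QYD and 2.69% ± 0.04 in Control (SD, n = 3 each).

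**Figure D1:**
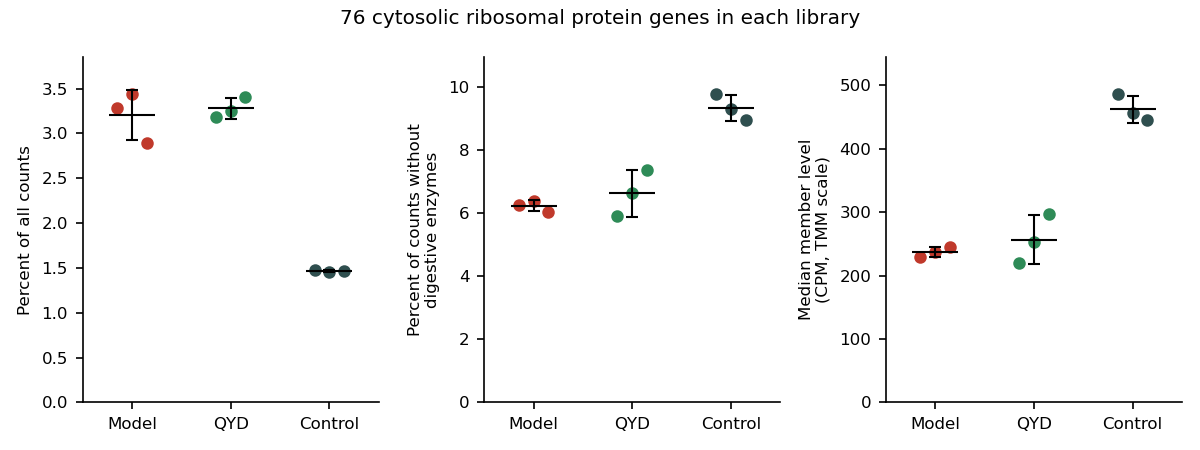
Each point is 1 library, and bars give the mean ± SD of 3 mice. The left panel shows the members' percent of all estimated counts, the middle panel their percent of counts without digestive enzymes, and the right panel the median member level in CPM scaled by TMM. Control lies lowest on the left (1.45% to 1.48%) and highest in the other panels (8.94% to 9.77%, and 445 to 486).

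The sign against Control therefore depends on the scale. TMM, on which values and tests stand unless another scale is named, sets libraries so that the bulk of genes is unchanged, and its factors were 1.52 to 1.82 in Model, 1.36 to 1.79 in QYD and 0.359 to 0.397 in Control. Scaling by library size alone instead asks for a gene's share of the whole library, and it raised the median log2 fold change of all tested genes by 2.15 in Model versus Control and by 2.03 in QYD versus Control. In bulk tissue, fewer cells of a type and less RNA per cell cannot be told apart. Summed acinar markers (Cpa1, Pnlip, Ptf1a and 8 others) stood at 113576 to 149460 TMM-scaled CPM (counts scaled to a common library total) in Model and 103901 to 135936 in QYD, against 630368 to 811840 in Control, and all 11 fell in Model. Neutrophil markers summed to 142 to 202 CPM in Model and 162 to 303 in QYD, against 10.6 to 44.7 in Control, with 10 of 12 higher in each comparison with Control and at most 1 listed at 0 in any library. B cell markers summed to 0.62 to 11.8 CPM in Model, 1.04 to 19.9 in QYD and 2.55 to 14.7 in Control, and none passed the test. Islet markers summed to 167 to 357 CPM in Model and 115 to 208 in QYD, against 843 to 1261 in Control, with 6 of 7 lower in each comparison with Control. Duct markers summed to 1399 to 2222 CPM in Model and 1205 to 2123 in QYD, against 523 to 671 in Control, and 5 of 8 were higher and 1 lower in Model. Macrophage markers summed to 196 to 326 CPM in Model and 241 to 279 in QYD, against 129 to 225 in Control, and 5 of 12 were higher and 1 lower in Model. Sums of fibroblast, endothelial and T cell markers overlapped between all groups. All of these marker sums and calls, overlaps included, are on the TMM scale alone and can differ with library size alone. In Model versus Control the median log2 fold change was -1.68 for islet and -3.13 for acinar markers. The shift of 2.15 between the scales is larger in size than the islet value, so the islet direction is stated for the TMM scale only. The part of these cell types in the members' values was not tested.

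In Model versus Control, all 46 large-subunit and all 30 small-subunit messages fell on the TMM scale, to 0.39 to 0.63 times their Control level, while all 76 rose as a share of the library. By the quasi-likelihood test of edgeR, with p-values adjusted over all tested genes by Benjamini-Hochberg, 21.3% of all genes were lower and 21.3% higher on the TMM scale. The median member level was 230, 238 and 245 CPM in Model mice 56, 57 and 59, against 486, 456 and 445 CPM in Control mice 43, 44 and 45. The median log2 fold change was -1.05 for the large subunit, with a range of -1.30 to -0.71, and -0.98 for the small subunit, with a range of -1.37 to -0.66. The largest adjusted p among the members was 0.0051. In each of the 76 members all 3 Model libraries lay below all 3 Control libraries, which held in this direction for 24.9% of all genes. The median over all genes was 0.04, and the SD of the log2 fold changes was 0.17 over the members and 1.05 over all genes.

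With library size alone, all 76 members were higher in Model, as were 94% of all genes. Their median log2 fold change was 1.10 for the large subunit and 1.17 for the small subunit, against 2.19 for all genes, so that the members' share grew less than that of the median gene. With library size without digestive enzymes, 42 large-subunit and 28 small-subunit members fell and none rose, at medians of -0.61 and -0.54, where 10.4% of all genes were lower and the median of all genes was 0.48. A change of scale shifts all genes nearly alike, so the gap between the members and the median gene, about 1 log2 unit, is 1 value seen on all 3 scales.

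**Figure D2:**
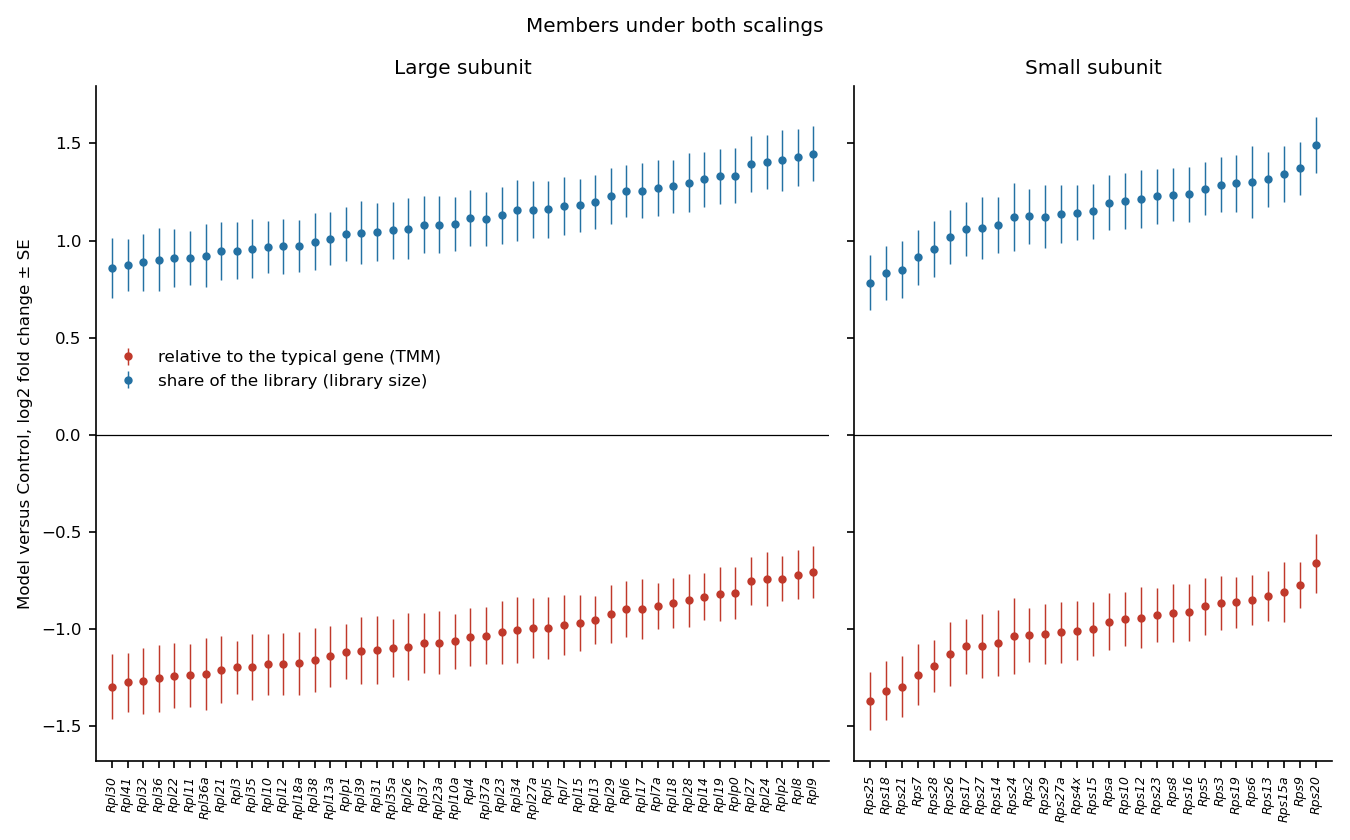
Log2 fold change of the members reported here in Model versus Control ± SE, by subunit and in order of size. Red points use TMM scaling and run from -1.37 (Rps25) to -0.66 (Rps20), and blue points use library size alone and run from 0.78 (Rps25) to 1.49 (Rps20), with the members in nearly the same order.

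In the large subunit the lowest value belonged to Rpl30, whose yeast counterpart restrains the splicing of its own message. Rpl30 stood at 177, 201 and 176 CPM in Model mice, against 488, 412 and 463 CPM in Control mice. Its log2 fold change was -1.30 ± 0.17 (SE) on the TMM scale, with an adjusted p of 0.00017 by edgeR, and 0.86 with library size alone. Rpl41, the smallest protein of the ribosome, followed with 350, 361 and 400 CPM in Model mice, against 969, 914 and 808 CPM in Control mice, a log2 fold change of -1.28 ± 0.15 (0.87 with library size alone). Rpl32, Rpl36 and Rpl22 came next, at -1.27, -1.26 and -1.24 on the TMM scale and 0.89, 0.90 and 0.91 with library size alone. None of these 5 had overlapping groups.

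At the other end of the large subunit stood Rpl9, with 216, 227 and 216 CPM in Model mice, against 373, 348 and 354 CPM in Control mice. That is a log2 fold change of -0.71 ± 0.13 on the TMM scale (adjusted p = 0.0017, edgeR) and of 1.45 with library size alone. Rpl8, which lies near the peptidyl transferase centre, was at -0.72 (1.43 with library size alone). Rplp2, an acidic protein of the stalk that recruits elongation factors, had 94.0, 105 and 94.2 CPM in Model mice, against 163, 175 and 152 CPM in Control mice, and a log2 fold change of -0.74 ± 0.12 (1.41 with library size alone). Rpl24 and Rpl27 were at -0.74 and -0.75 (1.41 and 1.40 with library size alone). Without the digestive enzymes in the library size, Rpl9, Rpl8, Rplp2 and Rpl24 did not pass the test, at -0.26, -0.28, -0.30 and -0.30.

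In the small subunit Rps25, a head protein that many viral messages need to bind the ribosome, was lowest. It had 150, 159 and 153 CPM in Model mice, against 431, 371 and 393 CPM in Control mice, and a log2 fold change of -1.37 ± 0.15 on the TMM scale (adjusted p = 6.4e-05, edgeR) and of 0.78 with library size alone. Of its 50-base stretches, 36.6% occurred in no other annotated gene. How reads were split with genes that share the others, such as Trappc4 and the copy Rps25-ps1, bears on its count. Rps18 was at 206, 238 and 234 CPM in Model mice, against 619, 520 and 551 CPM in Control mice, and its log2 fold change was -1.32 (0.83 with library size alone). Rps21, Rps7 and Rps28 followed at -1.30, -1.24 and -1.19 on the TMM scale and 0.85, 0.91 and 0.96 with library size alone.

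Rps20, a protein of the small-subunit head, was among the members that fell least. Rps20 had 162, 192 and 176 CPM in Model mice, against 310, 265 and 263 CPM in Control mice, and a log2 fold change of -0.66 ± 0.15 (adjusted p = 0.0051, edgeR; 1.49 with library size alone). Its highest Model library lay well below its lowest Control library, and it did not pass the test when library size was taken without digestive enzymes, at -0.22. Rps9, Rps15a and Rps13 were at -0.77, -0.81 and -0.83 on the TMM scale and 1.37, 1.34 and 1.32 with library size alone.

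Some members are also given by role. The genes in this paragraph were chosen for their role after their values were seen. The stalk base Rplp0 had 694, 718 and 727 CPM in Model mice, against 1257, 1369 and 1141 CPM in Control mice, a log2 fold change of -0.82, and its partner Rplp1 was at -1.12. Rpl5 and Rpl11, which with 5S RNA form the particle that restrains Mdm2 when assembly fails, were at -1.0 and -1.24. Rpl10, the late-joining protein that makes the large subunit competent, had 629, 703 and 719 CPM in Model mice, against 1707, 1497 and 1456 CPM in Control mice, and was at -1.18. Rps6, the substrate of S6 kinase, had 16.6, 15.4 and 13.5 CPM in Model mice, against 25.3, 26.1 and 30.8 CPM in Control mice, and was at -0.85. All of these values were positive with library size alone, at 1.34, 1.04, 1.16, 0.91, 0.97 and 1.30 in the order given. Rps6 has a low count for a ribosomal protein here, and 15.4% of its 50-base stretches occurred in no other annotated gene.

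Members with and without the run of pyrimidines had medians that lay close together and ranges that overlapped. The median log2 fold change in Model versus Control was -1.0 for the 20 members with a run, over a range of -1.32 to -0.74, and -1.01 for the 36 with an entry but no run, over a range of -1.37 to -0.71. For the 20 members with no promoter entry it was -1.05. Rps18, with the longest run printed above, and Rps25, with none, stood side by side as the lowest of the small subunit. The 76 members lie on 19 chromosomes, with 14 on chromosome 7 and 4 on chromosome X.

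In QYD versus Control, which uses the same Control libraries, all 76 members were again lower on the TMM scale and higher as a share of the library. On the TMM scale 20.3% of all genes were lower and 20.5% higher by edgeR at an adjusted p under 0.05, and with library size alone 93.8% were higher. The median member level was 220, 253 and 297 CPM in QYD mice 65, 66 and 68, against 486, 456 and 445 CPM in Control mice 43, 44 and 45. The median log2 fold change was -0.82 for the large subunit and -0.80 for the small subunit on the TMM scale, and 1.19 and 1.22 with library size alone. Values ran from -1.35 for Rpl41 to -0.45 for Rps20 on the TMM scale, and from 0.67 to 1.57 for the same genes with library size alone, and the groups did not overlap in any of the 76 members, as against 24.7% of all genes in that direction. Rpl41 had 290, 375 and 394 CPM in QYD mice, against 969, 914 and 808 CPM in Control mice. Rps20 had 169, 205 and 241 CPM in QYD mice, against 310, 265 and 263 CPM in Control mice, with an adjusted p of 0.037 by edgeR, the largest among the members. The count of small-subunit members called lower was 29 of 30 without Control 43 or 44, Model 59, or QYD 65 or 66. With library size without digestive enzymes, 65 members were lower, where 10.9% of all genes were.

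The direct comparison of QYD with Model gave no call among the members or among all 12828 genes (0%) by edgeR. At an unadjusted p under 0.05 there were 2 members (2.63%), against 5.85% of all genes, and the smallest adjusted p of a member was 0.83. Log2 fold changes of the members ran from -0.24 to 0.42 with a median of 0.18 on the TMM scale, 72 of them above 0. With library size alone they ran from -0.37 to 0.28 with a median of 0.04, 47 of them above 0. Of all 12828 genes, 6558 were above 0 on the TMM scale and 4009 with library size alone. Without QYD 68 the TMM median was 0.04 for the large and 0.05 for the small subunit. The median SE of a member was 0.15, close to the median log2 fold change itself. Rpl36 had the smallest p, with 67.2, 75.4 and 94.1 CPM in QYD mice, against 57.1, 61.1 and 59.1 CPM in Model mice, and a log2 fold change of 0.42 ± 0.17. Its groups did not overlap, nor did those of Rpl4, and these 2 members stand against 8.56% of all genes that were higher without overlap. Rpl22, known for its part in T cell development, had 81.0, 104 and 128 CPM in QYD mice, against 74.0, 86.4 and 82.5 CPM in Model mice, with 1 QYD library inside the Model range. Of the 3 members with the smallest p in each subunit, the other large-subunit one was Rpl36a at 0.40 ± 0.18, and the small-subunit ones were Rps27 at 0.32 ± 0.16, Rps4x at 0.27 ± 0.15 and Rps7 at 0.26 ± 0.16, each with an adjusted p of 0.83. With library size alone Rpl36, Rpl22 and Rpl36a were at 0.28, 0.22 and 0.25, and Rps27, Rps4x and Rps7 at 0.18, 0.12 and 0.12.

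On the TMM scale the QYD mice differed among themselves in the same order across the family, an order not particular to it. The mitochondrial ribosomal proteins had medians of 9.08, 9.93 and 10.9 CPM in QYD 65, 66 and 68. On the TMM scale QYD 65 was the lowest of its group in all 76 members and QYD 68 the highest in 75, and QYD 68 was the highest of the 6 injured libraries in 72. In the Model group the order was less uniform, with Model 56 lowest in 60 members. The share of counts taken by digestive enzymes was 46%, 50.9% and 53.7% in QYD 65, 66 and 68, and the TMM factors were 1.79, 1.54 and 1.36. These factors divide every CPM value on the TMM scale, while the members' share of all counts was 3.18%, 3.25% and 3.41%. The part of the enzymes and of the factors in the members' level was not tested. Left out of the fit, QYD 65 brought the members at an unadjusted p under 0.05 in QYD versus Model to 33, with none called, and QYD 68 brought them to 0. The share of all genes at that p in these fits is not given here. Whether the 33 is particular to the family was therefore not tested.

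Inside the family, the proportions were largely kept. When each library was scaled by its summed member counts, which removes what all members share, 65 of 76 members lay within 0.25 log2 units of the family in Model versus Control and all 76 within 0.5. On this scale 71.2% of all genes were higher and 3.66% lower in Model by edgeR. In all, 3 members were higher than the family, Rps20 and Rpl9 among them, and Rps25 was lower. At an unadjusted p under 0.05 there were 5 members (6.58%), against 76.7% of all genes. The adjustment ran over all genes, most of which were called on this scale, so it hardly corrects for testing many members. Rps20 made up 8.92, 9.76 and 9.21 of every 1000 member counts in Model mice, against 7.53, 7.07 and 7.10 in Control mice, a log2 fold change of 0.36 ± 0.13 (adjusted p = 0.023, edgeR). Rpl9 made up 11.9, 11.5 and 11.3 per 1000 in Model mice, against 9.05, 9.29 and 9.54 in Control mice, or 0.32 ± 0.13 (adjusted p = 0.040, edgeR). Rps25 made up 8.26, 8.08 and 8.01 per 1000 in Model mice, against 10.5, 9.90 and 10.6 in Control mice, or -0.35 ± 0.13 (adjusted p = 0.028, edgeR). Groups did not overlap in Rps20, Rpl9 or Rps25, but each call was lost in some fits without 1 library. That was so for Rps20 without Control 44 or 45 or Model 57 or 59. It was so for Rps25 without Control 43 or 45, any Model library or QYD 66, and for Rpl9 without any Control or Model library or QYD 66. The adjusted p in those fits ran from 0.053 to 0.104.

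On the same scale in QYD versus Control, where 66.3% of all genes were higher and 4.17% lower, Rps20 was higher than the family and 6 members were lower. Here 7 members (9.21%) had an unadjusted p under 0.05, against 73% of all genes, and the same limit of the adjustment holds. Rps20 made up 9.47, 9.72 and 9.63 per 1000 in QYD mice, against 7.53, 7.07 and 7.10 in Control mice, or 0.41 ± 0.13 (adjusted p = 0.014, edgeR). The lower members were Rpl41 (-0.49), Rps21 (-0.43), Rps29 (-0.41), Rps28 (-0.35), Rps25 (-0.33) and Rpl32 (-0.33). Rpl41 made up 16.3, 17.7 and 15.7 per 1000 in QYD mice, against 23.5, 24.4 and 21.8 in Control mice. Rps29, a zinc-binding protein of the small subunit, made up 2.76, 3.03 and 2.70 per 1000 in QYD mice, against 3.47, 4.03 and 3.78 in Control mice, while Model mice had 3.34, 4.24 and 3.63, which overlapped Control. The count of lower members was 2 without QYD 65 or QYD 66, and 3 without any 1 Control library, Model 57 or Model 59, and Rps20 was not called without QYD 66. In QYD versus Model no member differed from the family by edgeR, with 1 at an unadjusted p under 0.05. The ratio of large-subunit to small-subunit counts was 1.75, 1.76 and 1.78 in Model mice and 1.79, 1.73 and 1.77 in QYD mice, against 1.81, 1.82 and 1.79 in Control mice, and no test was run on it.

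**Figure D3:**
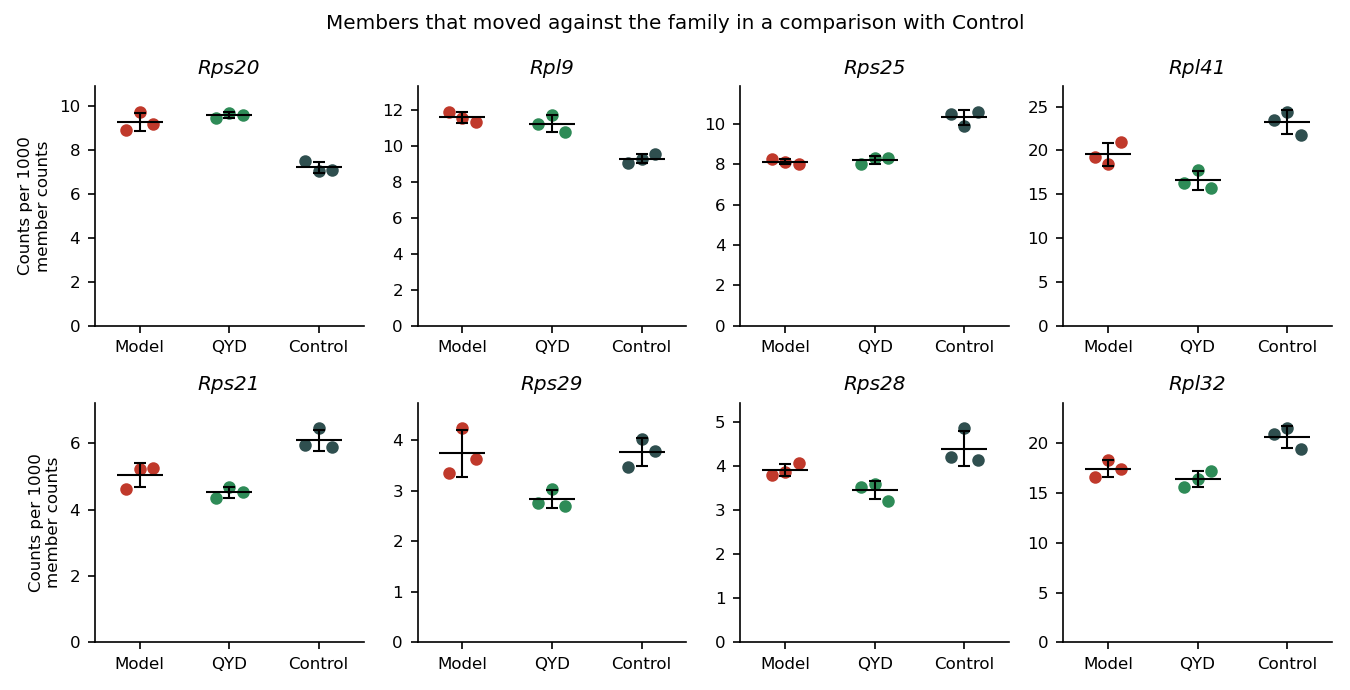
Counts of 8 members per 1000 member counts in each library (points, 1 mouse each), with mean ± SD of 3 mice. Axes start at 0. The first 2 panels show members above the family in Model, such as Rps20 with 8.92 to 9.76 in Model against 7.07 to 7.53 in Control, and the other panels show members below it in Model or QYD, such as Rpl41 with 15.7 to 17.7 in QYD against 21.8 to 24.4 in Control.

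Between members, levels per transcript length spread much more than the changes did. Mean FPKM over the members had a median of 673 in Model, from 20.4 to 1937, of 676 in QYD, from 19.2 to 1863, and of 289 in Control, from 8.27 to 1062. FPKM is a share of the library, and it was higher in Model than in Control for every member, as with library size alone. The highest level in Control belonged to Rpl41, with 1937 ± 53 FPKM in Model, 1722 ± 93 in QYD and 1062 ± 63 in Control (SD, n = 3 each). Rpl10 and Rpl35 followed in Control with 885 ± 30 and 857 ± 20 FPKM, a gap smaller than the SD of Rpl10. The lowest were Rps6 with 20.4 ± 3.9 FPKM in Model and 8.27 ± 1.24 in Control, Rps15a with 42.9 ± 3.2 in Model and 16.9 ± 0.7 in Control, and Rps20 with 90.0 ± 10.4 in Model and 32.0 ± 1.4 in Control. These levels depend on the transcript length that the authors divided by. Counts and FPKM together imply a length of 5008 bases for Rps15a and 3317 for Rps20, against 320 for Rpl41. Over the 3 mice of a group the median coefficient of variation of a member's FPKM was 9.52% in Model, 5.62% in QYD and 4.98% in Control. The order of levels was nearly the same in Model and Control, with Spearman's rho = 0.972 over the 76 log2 means. Pearson's r was 0.989, and the means share their libraries and lengths.

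**Figure D4:**
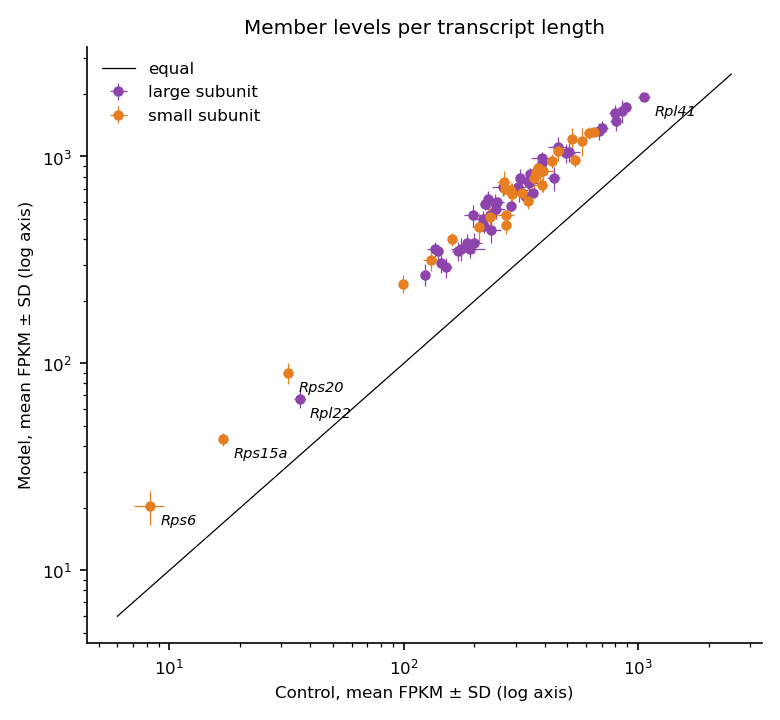
Mean FPKM of each member in Model (vertical) against Control (horizontal), both on log axes, with SD over 3 mice as bars, large subunit in purple and small subunit in orange. All 76 points lie above the line of equal values, from Rps6 (20.4 against 8.27) to Rpl41 (1937 against 1062).

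Many members have processed copies in the genome. Over annotated transcripts, the median member had 61.6% of its 50-base stretches in no other gene, and 26 members had under 50%. Among them were Rpl30 (27.2%), Rps18 (20.6%), Rpl36 (18.9%), Rpl24 (18.3%) and Rpl36a (14.5%), beside Rps25 and Rps6. The limit given for the count of Rps25 holds for these too. The genes that share stretches include such copies and also other genes, such as Trappc4 for Rps25. The 50 members with at least 50% had a median log2 fold change of -1.0 in Model versus Control on the TMM scale and the other 26 one of -1.05, and all were lower in each set.

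Ribosomal proteins outside the pattern, and near copies of members, had the same signs as the members. The list of these held 7 tested genes, and all 7 fell in Model on the TMM scale, where 21.3% of all genes were lower, and rose with library size alone, where 94% of all genes were higher. Rack1, a signalling scaffold on the small subunit, had 399, 398 and 382 CPM in Model mice, against 734, 782 and 688 CPM in Control mice, and a log2 fold change of -0.90 (1.25 with library size alone). Fau, a ubiquitin-like fusion to a small-subunit protein, was at -0.84 (1.31). Rps3a1, a small-subunit protein outside those 7 and named after its value was seen, had 329, 344 and 332 CPM in Model mice, against 746, 630 and 711 CPM in Control mice, a log2 fold change of -1.05 (1.10). Among near copies, Rpl22l1 was at -1.32 (0.82), Rpl36al at -1.31 (0.84), Rpl7l1 at -0.88 (1.28) and Rps27l, a p53 target, at -0.60 (1.55). Without Control 43 the call of Rps27l in Model was lost (adjusted p = 0.056, edgeR). Rps27l was also the exception in QYD versus Control, at -0.35 ± 0.17 with an adjusted p of 0.12 by edgeR, and it was at 1.67 with library size alone.

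Other lists linked to the ribosome had negative medians on the TMM scale, smaller in size than the members', and positive ones with library size alone. With library size without digestive enzymes, medians in Model versus Control were -0.006 for other TOP messages and 0.27 for assembly genes. They were 0.23 for TOP regulators and 0.17 for the mitochondrial ribosome. On that scale the 2 subunits kept negative medians, at -0.61 and -0.54, and all genes had one of 0.48. The TMM counts of these lists stand beside 21.3% of all genes lower and 21.3% higher in Model, and 20.3% lower and 20.5% higher in QYD versus Control. With library size alone, 94% of all genes were higher in Model and 93.8% in QYD versus Control, so counts near all of a list are close to that share. Of 20 other TOP messages, 14 fell and 3 (Hnrnpa1, Nap1l1 and Pabpc1) rose in Model on the TMM scale, with a median of -0.45, and all 20 rose with library size alone. Naca, a subunit of the complex that meets nascent chains at the ribosome, was at -1.12 (1.04 with library size alone), Eef1b2, an exchange factor of elongation, at -1.06 (1.09), and Eif3h, an initiation factor subunit, at -0.84 (1.32). In QYD versus Control 10 of the 20 fell and 3 rose on the TMM scale, and all 20 rose with library size alone. Of 55 genes of ribosome assembly and rRNA synthesis, 17 fell and 2 (Eif6 and Utp20) rose in Model on the TMM scale, with a median of -0.17 (1.99 with library size alone). Myc, the transcription factor that drives ribosome production, had 11.3, 6.94 and 8.00 CPM in Model mice, against 28.5, 23.3 and 16.4 CPM in Control mice, and a log2 fold change of -1.37 ± 0.22 (0.80 with library size alone). Nop10, of the pseudouridylating particles, was at -1.09 (1.06), and Rrs1, an assembly factor of the large subunit, at -0.93 (1.23).

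Of 19 regulators of TOP messages, 6 fell and 1 rose in Model on the TMM scale, with a median of -0.21 (1.95 with library size alone). In QYD versus Control 8 fell and 1 rose on the TMM scale, and all 19 rose with library size alone, where 93.8% of all genes were higher. Rps6kb1, the kinase that phosphorylates Rps6, had 13.3, 13.1 and 14.5 CPM in Model mice, against 54.1, 27.4 and 34.2 CPM in Control mice, and a log2 fold change of -1.50 ± 0.20 (0.66 with library size alone). The mTOR inhibitor Deptor was at -1.18 (0.96) and the mTOR activator Rheb at -1.01 (1.15). The gene that rose was Mlst8, an mTOR partner, at 1.24 (3.38), named here after its value was seen. The mitochondrial ribosome, built from another set of nuclear genes, had 27 of 78 members lower and 2 higher in Model, with a median of -0.27 on the TMM scale and of 1.88 with library size alone. Relative to the summed cytosolic members, 63 of the 78 (against 71.2% of all genes) were higher in Model versus Control and none lower, and 56 (against 66.3% of all genes) were higher in QYD versus Control and none lower.

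**Figure D5:**
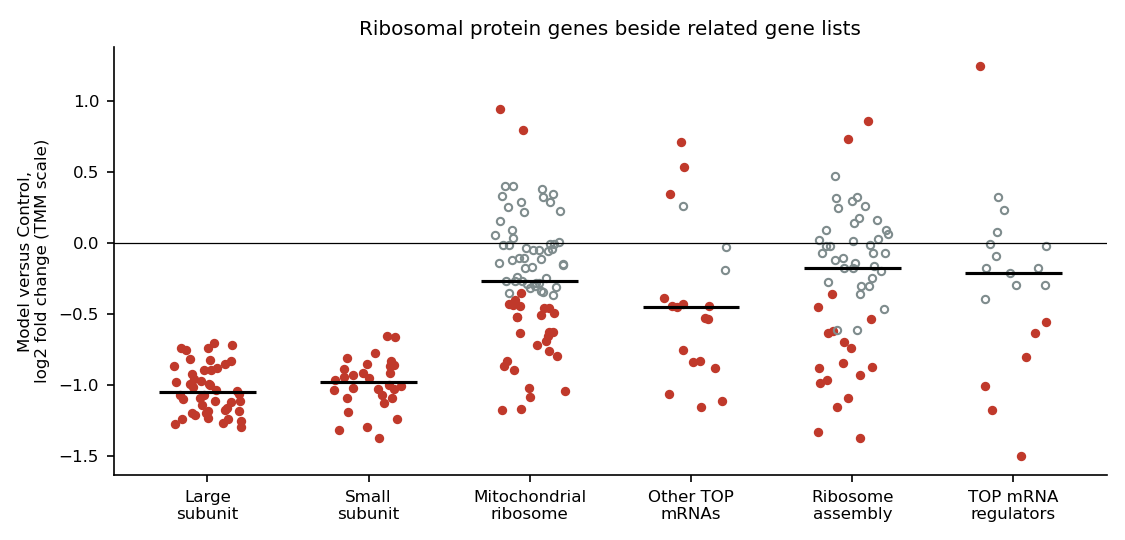
Log2 fold change in Model versus Control on the TMM scale for each tested gene of the 2 subunits and 4 related lists, with black bars at the medians. Filled red points passed an adjusted p under 0.05 and open grey points did not. Both subunits lie below -0.6 throughout, with medians of -1.05 and -0.98, while the other lists spread on both sides of 0.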

How the data were processed

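Pancreas mRNA of 9 mice, 3 each in Model, QYD and Control, was sequenced as oligo(dT)-selected libraries, per the labels' protocols. Per the submitters' processing notes, HISAT2 2.0.4, Bowtie2 2.2.5, RSEM 1.2.12 and build GRCm38.p6 were used, with no roles given there. The deposited table holds estimated counts per gene and library, made by the authors without further scaling as far as the column names say, of which 93.5% were whole numbers within 1e-09 (83.6% for the members). The authors also deposited FPKM values and TPM values for the same genes and libraries. Summed estimated counts were 19112923 to 20212744 per library, so depth was even.

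Rounded counts entered edgeR 4.0.16 under R 4.3.3 (TMM, filterByExpr, quasi-likelihood test, group as the only term, all 9 libraries, 3 contrasts), with Benjamini-Hochberg adjustment over 12828 genes and a threshold of 0.05. The quasi-likelihood fit had 6 residual degrees of freedom and a common biological coefficient of variation of 0.175. The same fitting steps were also run on data simulated from this fit. No shift in the enzyme share was built into those data, so that run does not bear on the choice of scale. Replicates of a group all differed by more than sampling noise (chi-square per degree of freedom 16.3 to 55.4), and each label names a separate mouse. DESeq2 1.42.0, limma 3.58.1, other scalings and filters, and leaving out each library were alternatives. The reported SE is the size of the log2 fold change divided by the square root of F.

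The printed windows and the coordinates come from RefSeq tables of GRCm38.p6. Uniqueness was taken from GENCODE transcripts instead, pseudogenes included. A stretch of 50 bases from a protein-coding transcript counted as unique when no other annotated gene's transcripts held it on either strand. The members and lists were chosen with earlier results of these data known. Named members are, per subunit, the 5 lowest and 5 highest in Model versus Control and the 3 with the smallest p in QYD versus Model, then the 5 highest and 5 lowest relative to the family, 3 genes with the smallest p per related list, and every tested near copy. Some genes that this rule names are not reported here.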

Additional observations from a re-analysis of the deposited data

How the results depend on the processing

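No paired analysis was possible because the mouse numbers in the labels are not shared between groups.

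The choice of scale was the setting that turned the members' direction in the comparisons with Control. With library size alone, 0 members were lower and 46 large-subunit and 30 small-subunit members were higher in Model and in QYD, with medians of 1.10 and 1.17 in Model versus Control and of 1.19 and 1.22 in QYD versus Control. Its log2 fold changes in Model versus Control were Rpl30 0.86, Rpl41 0.87, Rpl32 0.89, Rpl36 0.90, Rpl22 0.91, Rpl9 1.45, Rpl8 1.43, Rplp2 1.41, Rpl24 1.41 and Rpl27 1.40 in the large subunit, Rps25 0.78, Rps18 0.83, Rps21 0.85, Rps7 0.91, Rps28 0.96, Rps20 1.49, Rps9 1.37, Rps15a 1.34 and Rps13 1.32 in the small subunit, and Rpl22l1 0.82, Rpl36al 0.84, Rack1 1.25, Fau 1.31, Rpl7l1 1.28, Rps27l 1.55, Eef1b2 1.09, Naca 1.04, Eif3h 1.32, Nop10 1.06, Myc 0.80, Rrs1 1.23, Deptor 0.96, Rps6kb1 0.66 and Rheb 1.15 among the other genes named. With library size without digestive enzymes the medians kept their sign but moved to -0.61 and -0.54 in Model versus Control and to -0.46 and -0.43 in QYD versus Control, large subunit first. Which scale tracks RNA per cell was not tested. As a share of TPM the family took 6.03% in Model, 6.05% in QYD and 2.69% in Control.

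Leaving out each library kept the medians between -1.09 and -0.99 for the large and between -1.02 and -0.94 for the small subunit in Model versus Control, and between -0.98 and -0.73 and between -0.92 and -0.71 in QYD versus Control. In QYD versus Model they lay between 0.04 and 0.29 and between 0.05 and 0.31. The number called lower was 29 to 30 in the small subunit in QYD versus Control. The members' share ranged from 3.09% to 3.36% in Model, 3.22% to 3.33% in QYD and 1.46% to 1.48% in Control.

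Calls relative to the family were the least stable. Leaving out 1 library gave 0 to 3 higher and 0 to 2 lower in Model versus Control, and 0 to 1 higher and 2 to 5 lower in QYD versus Control. With at least 5 CPM in 3 samples, and with DESeq2, 2 were lower in Model versus Control, the added one being Rps18. The cause was not tested. In QYD versus Model no alternative called a member, and the number at an unadjusted p under 0.05 was 0 to 4 except without QYD 65, where it was 33. The share of all genes at that p without QYD 65 is not given here. With 3 mice per group, the number of mice limits the precision of every comparison.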
